A study of Mus musculus with 3 samples.

Results

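Fth1, Ftl1, Hmox1, Trf, Mt1 and Mt2 are the genes of iron, heme and metal handling followed here through the immune cells of the muscularis. They were chosen by name, and all 6 were listed among the 14148 genes of the UMI count tables. CD45+ cells were sorted from the muscularis externa of the small intestine of wild-type C57BL/6J mice aged 12 weeks, and 10x Genomics 3′ libraries were sequenced. The mice were naïve, or were taken 24 h or 72 h after intestinal manipulation, a surgical injury that sets off a transient inflammation of the muscle layer. Each time point is 1 library pooled from 3 to 4 mice, so a difference between time points cannot be told apart from one between libraries, and no test between time points was possible. All groups were of 1 genotype, and no sham-operated library was analysed here.

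Ferritin is the shell in which cells store iron. Fth1 encodes its heavy chain, which oxidizes incoming iron, and Ftl1 its light chain, which favours mineral formation inside the shell. Hmox1 encodes heme oxygenase 1, the inducible enzyme that opens heme and frees its iron, Trf encodes transferrin, the carrier that moves iron between cells, and Mt1 and Mt2 encode metallothioneins, small cysteine-rich proteins that bind zinc and copper. Macrophages are known for recovering iron from engulfed red cells, and the ferritin genes are a textbook case of control after transcription: iron regulatory proteins bind a hairpin near the start of the message and hold back its translation when iron is scarce. Only the messages were counted here, not the proteins.

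The hairpin, called an iron-responsive element, is shown because it sets the ferritin genes apart from the other members. It was searched for in the first 250 bases of every transcript of GENCODE M21 (GRCm38) as a C, 5 bases, the loop CAGTGN and 5 bases able to pair with the first 5. It was found in 70 of 55341 genes (0.126%), and among the members in Fth1 and Ftl1 and not in the other 4. Among the further genes of iron, heme and metal handling listed for comparison it was found in Slc40a1, which encodes the iron exporter ferroportin. The 28 bases around each element follow, with the 6 bases of the loop in capitals.
Fth1: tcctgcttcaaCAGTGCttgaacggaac
Ftl1: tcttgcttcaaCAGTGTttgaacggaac
Slc40a1: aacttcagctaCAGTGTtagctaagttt
Counted from 1 at the 5′ end of these stretches, Fth1 and Ftl1 shared 26 of 28 bases and differed by C3T and C17T, with the Fth1 base first. Fth1 and Slc40a1 shared 13 of 28. The Fth1 stretch lies on chromosome 19 at 9982733 to 9982760 on the forward strand, in the 1st exon. The Ftl1 stretch lies on chromosome 7 at 45459779 to 45459806 on the reverse strand, in the 1st exon, and that of Slc40a1 on chromosome 1 at 45925465 to 45925492 on the reverse strand, in the 1st exon. All 3 stretches lie in the 5′ untranslated part of the coding transcripts that hold them. Hmox1 is on chromosome 8 from 75093621 to 75100589, and Trf is on chromosome 9 from 103204001 to 103230444. Mt2 (94172664 to 94173568) and Mt1 (94179082 to 94180327) are neighbours on chromosome 8, on the same strand with 5513 bases between them.

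The 3 libraries held 652 cells (naïve), 2211 cells (24 h) and 1239 cells (72 h), with 1865221, 10542346 and 5246731 UMIs. Medians were 2134.5, 4669 and 3295 UMIs per cell, and each pair of libraries shared 1 barcode. The cells were clustered without the 6 genes and named from marker genes as X-like. Doublets were kept. Monocyte/Mφ-like cells numbered 139, 1545 and 573. The naïve ones lay mostly in the cluster led by Lilra5, Cd81 and Cx3cr1 (81 cells), those at 24 h in the clusters led by Arg1, Fabp5, Cxcl10 and Gm9733, and those at 72 h in the clusters led by Igf1 (249 cells) and Saa3 (139 cells), so values of the class compare different cell populations. Immunoglobulin genes were among the leading genes of 2 subsets named below, Fabp5-like and Cx3cr1-like, and the 8 B cell markers summed to 584, 104 and 211 CPM in the class over the 3 libraries. Their part in the results was not tested. The Arg1-like subset named below was led by Mmp12 and Cxcl3. Arg1 itself was not among its leading genes, but was among those of the Ltc4s-like subset. Clusters 2, 8 and 13, which carried neutrophil markers, and the unnamed cluster 15 are given by number and leading gene. Cluster 15 carried neutrophil markers too, though none was among its leading genes. The 9 markers summed to 20736 CPM in it, against 35795 CPM in cluster 8 and 82940 CPM in cluster 2 at 24 h. Cluster 8 also had Siglecf among its leading genes, and Retnlg was not found in it at 24 h. Its 3 eosinophil markers summed to 245 CPM at 24 h and 394 CPM at 72 h, from 6 and 82 UMIs. Every other group had at most 112 CPM of them. Levels are CPM, the UMIs of a gene per 1000000 UMIs of its group, with an exact 95% Poisson interval, and ratios carry an exact conditional Poisson interval. These intervals, and the exact Clopper-Pearson intervals of shares, cover counting error only and not the difference between mice. CPM is a share of a cell's messages, so a high level can go with few other messages, and UMIs per cell are given where the 2 scales part.

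In monocyte/Mφ-like cells, the library at 24 h held less Trf and more Hmox1 and Ftl1 than the naïve library, while Fth1 was close to level. Trf was 895 CPM (813 to 982) in the naïve library, against 182 CPM (173 to 191) after 24 h and 1016 CPM (981 to 1052) after 72 h. Only the 24 h library was low, and its interval lay far from both others. Hmox1 was 52.7 CPM (34.5 to 77.3), 188 CPM (179 to 197) and 140.0 CPM (127 to 154) in the same order. The 24 h and 72 h libraries were both above the naïve one. Ftl1 was 10275 CPM (9994 to 10561), 19836 CPM (19744 to 19929) and 11911 CPM (11789.7 to 12034), highest at 24 h. Fth1 was 9721, 10513 and 9025 CPM, a narrow range in which no 2 intervals overlapped. Mt1 was 419.9 CPM (365 to 481), 596 CPM (580.1 to 612) and 531 CPM (506 to 558), and Mt2 rested on 15, 119 and 52 UMIs, or 30.4, 13.2 and 16.9 CPM.

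Set against the naïve library, the level of Trf at 24 h was 4.92 (4.42 to 5.47) times lower, that of Hmox1 3.57 (2.42 to 5.47) times higher and that of Ftl1 1.93 (1.88 to 1.99) times higher. For Mt1 the ratio was 1.42 (1.23 to 1.64) and for Fth1 1.08 (1.05 to 1.11). Genes were compared between groups where they reached 100 CPM in either group and 10 UMIs over both, which 5 of the 6 members did. Of these 5, Hmox1 was at least 2-fold higher and Trf at least 2-fold lower at 24 h, where 22.0% of the 1525 genes compared were past 2-fold in either direction. The median ratio over these genes was 1.25, so Fth1 lay below the middle of all genes and Mt1 slightly above it. A gene that reached 100 CPM in only a single group entered through the group where it was high. This held for Hmox1 in the comparisons with the naïve library. Between 24 h and 72 h, Trf was 5.59 (5.26 to 5.93) times higher and no other of the 5 passed 2-fold, against 10.0% of 1459 genes. Ftl1 was 1.67 (1.65 to 1.68) times lower at 72 h than at 24 h. Between the naïve library and 72 h, Hmox1 was 2.65 (1.79 to 4.11) times higher and the other 4 stayed within 2-fold, against 6.08% of 1348 genes, with Trf at 1.14 (1.03 to 1.26). At 24 h the class held 93.9% of the library's Trf UMIs and 92.7% of its Hmox1 UMIs. It also held most UMIs of all genes, 9008218 of 10542346.

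**Figure D1:**
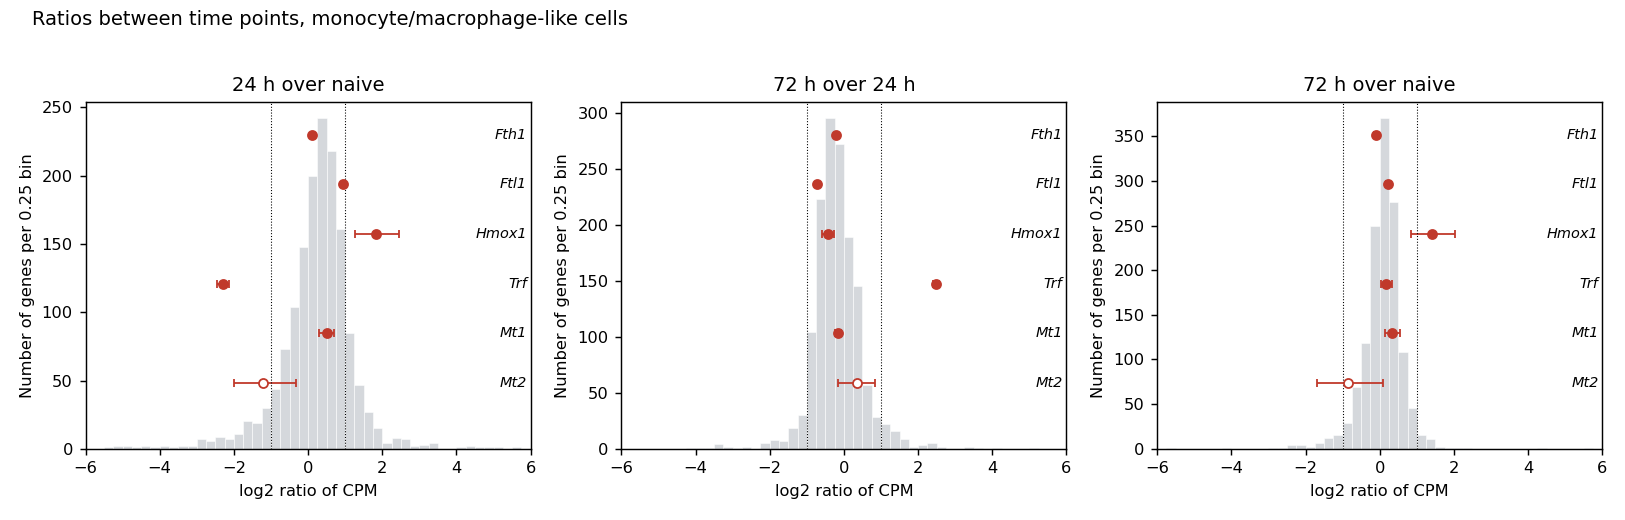
The log2 ratio of CPM between libraries in monocyte/Mφ-like cells is drawn for each of the 6 genes (points, with exact 95% intervals) over the number of compared genes in bins of 0.25 (grey bars). Dotted lines mark 2-fold, and open points were not among the genes compared. Trf lies in the left tail at 24 h over naïve and in the right tail at 72 h over 24 h.

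Free RNA in the droplets adds UMIs to cells that do not make a gene, so T cell-like and B cell-like cells serve as the level to read against. Trf was found in 80.6% (73.0 to 86.8) of naïve monocyte/Mφ-like cells, 41.4% (38.9 to 43.9) at 24 h and 79.8% (76.2 to 83.0) at 72 h, against 3.72% (1.51 to 7.52), 4.23% (0.880 to 11.9) and 20.7% (14.2 to 28.6) of T cell-like cells. Median depths were 3315, 5946 and 5322 UMIs in the first class and 2336.5, 2400 and 2704 in the second. With each cell drawn down to 1000 UMIs, the shares for Trf were 53.0%, 12.3% and 52.2% in monocyte/Mφ-like cells and 1.69%, 2.86% and 6.67% in T cell-like cells. The 24 h library was lowest at equal depth too. For Hmox1 the thinned shares were 3.73%, 15.3% and 10.1% against at most 2.86% in T cell-like cells, and unthinned they were 16.5%, 49.9% and 35.4%. For Mt1 they were 26.9%, 41.2% and 37.6%, against at most 10% in T cell-like cells, and unthinned they were 54.7%, 81.8% and 74.2%. In thinning, 5, 17 and 17 monocyte/Mφ-like cells of the naïve, 24 h and 72 h libraries were too shallow and were left out.

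Among the classes, Fth1 and Ftl1 were lowest in T cell-like and B cell-like cells of all 3 libraries. Fth1 ran from 1845 CPM in naïve T cell-like cells to 3495 CPM in B cell-like cells at 24 h. With ribosomal protein and mitochondrial genes left out of the total, the levels of B cell-like cells were 1.55, 1.53 and 1.61 times higher in the 3 libraries, and Fth1 at 24 h was 5337 CPM. DC-like cells lay between these and the monocyte/Mφ-like cells, with 5485, 6166 and 4891 CPM of Fth1 over the 3 libraries. In the naïve library the monocyte/Mφ-like level was 5.27 (4.90 to 5.67) times that of T cell-like cells for Fth1, 7.85 (7.22 to 8.55) times for Ftl1, 13.3 (7.88 to 24.2) times for Mt1 and 47.2 (24.7 to 104) times for Trf. All 4 members compared there passed 2-fold, where 43.8% of 1743 genes did. Trf and Mt1 reached 100 CPM there only in monocyte/Mφ-like cells. Trf in DC-like cells was also lowest at 24 h, with 240.1 CPM (164 to 339), 88.0 CPM (69.1 to 110.5) and 215 CPM (189.9 to 243), and it was 2.73 (1.74 to 4.18) times lower at 24 h than in the naïve library, where 15.4% of 1564 genes passed 2-fold. In that comparison Trf reached 100 CPM only in the naïve library. The DC-like group itself was not alike in the 3 libraries. Its 14 monocyte/Mφ markers summed to 12050.2, 5067 and 9546 CPM, and were thus also lowest at 24 h, while its 9 DC markers summed to 855, 1364 and 1567 CPM. The 30 naïve cells also held 1876 CPM of the 8 T cell markers and 2694 CPM of the 7 NK/ILC markers, against 265 and 22.6 CPM at 24 h and 314 and 139 CPM at 72 h. The part of these markers' cells in the DC-like levels was not tested.

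**Figure D2:**
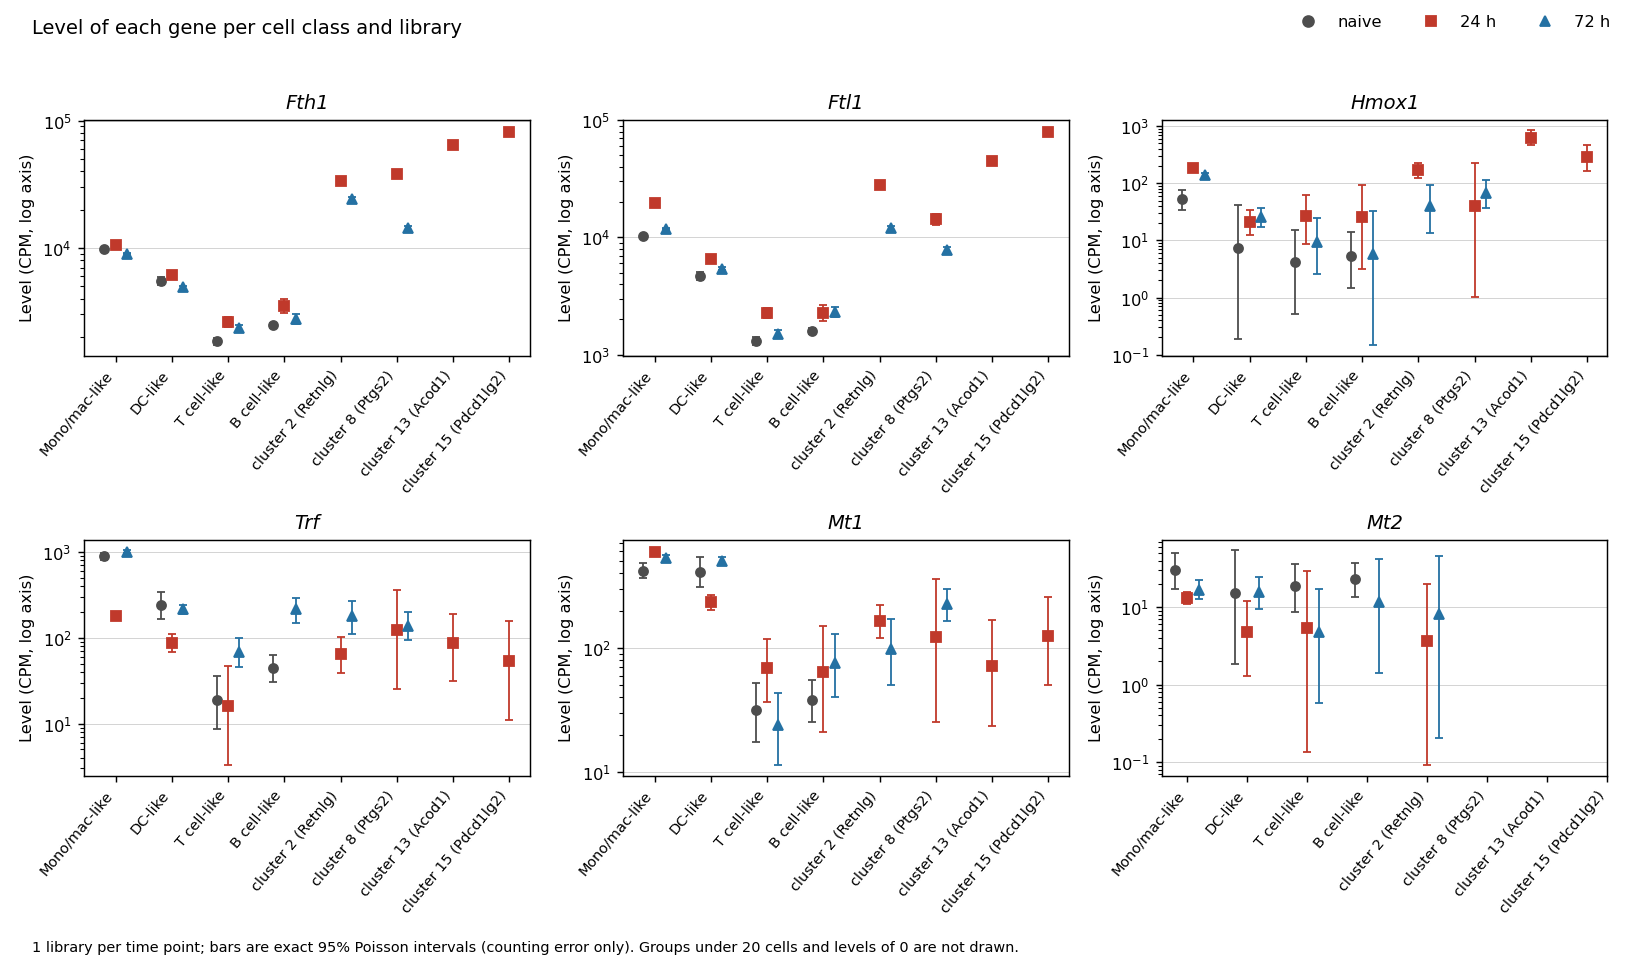
Level of each gene (CPM, log axis) in 8 cell classes and clusters, by library (circle naïve, square 24 h, triangle 72 h), with exact 95% Poisson intervals. Fth1 is highest in the numbered clusters and Ftl1 in clusters 15 and 13, and Trf is highest in monocyte/Mφ-like cells. Mt1 intervals of DC-like and monocyte/Mφ-like cells overlap in the naïve and 72 h libraries.

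Among the classes and clusters, messages of the ferritin heavy chain were most dense in the numbered clusters. The Arg1-like subset of monocyte/Mφ-like cells at 24 h (35 cells), at 27570.4 CPM, lay above clusters 2 and 8 at 72 h. Fth1 took 33424 CPM in cluster 2, led by Retnlg and carrying neutrophil markers, at 24 h, and 24191 CPM at 72 h. In cluster 8, led by Ptgs2 and Siglecf, it took 38369 CPM at 24 h, from 34 cells, and 14450.3 CPM at 72 h. In cluster 13, led by Acod1 and also with neutrophil markers, it took 64772 CPM (62891 to 66695) at 24 h and had more UMIs than any other gene. Cluster 15, 51 cells of the 24 h library led by Pdcd1lg2 and Gstm1 that received no name, held 81477 CPM (79129 to 83878) of Fth1 and 79672 CPM (77349.8 to 82046) of Ftl1, the 2 genes with most UMIs there. Against cluster 2 at 24 h, cluster 15 was 2.44 (2.35 to 2.53) times higher in Fth1 and 2.86 (2.75 to 2.97) times higher in Ftl1, where 43.3% of 1694 genes passed 2-fold.

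The order changed when UMIs per cell were counted, as the numbered clusters held few UMIs per cell in all. Cluster 2 at 24 h had a median of 834 UMIs per cell and a mean of 30.2 Fth1 UMIs per cell, against 5946 and 61.3 in monocyte/Mφ-like cells of the same library. The mean was 95.5 in cluster 13 and 89.4 in cluster 15, with medians of 1418 and 1071 UMIs per cell in all, so these clusters exceeded the class mean of monocyte/Mφ-like cells on both scales. Per cell, the Fabp5-like and Arg1-like subsets of that class held more still, with 102 and 142 Fth1 UMIs. In the same library it was 6.93 in T cell-like cells and 7.97 in B cell-like cells. Cells drawn down to 1000 UMIs spread widely within the numbered clusters: the median Fth1 count was 62 in the 32 deep enough cells of cluster 13, with a 10th percentile of 11.4 and a 90th percentile of 127. In the 91 such cells of cluster 2 at 24 h, the median was 24 and these percentiles were 9 and 73.

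Neutrophil markers also moved with time inside the monocyte/Mφ-like class. The 9 markers summed to 365 CPM among naïve cells, 1826 at 24 h and 1262 at 72 h, with Retnlg and Cxcr2 at 0 in the naïve library, against 82940.4 CPM in cluster 2 at 24 h. Their part in the ferritin values was not tested. The 3 hemoglobin genes among the erythroid markers had 21, 19 and 0 UMIs in the whole naïve, 24 h and 72 h libraries, and 0, 13 and 0 in monocyte/Mφ-like cells. The part of engulfed red cells in the Hmox1 values was not tested.

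**Figure D3:**
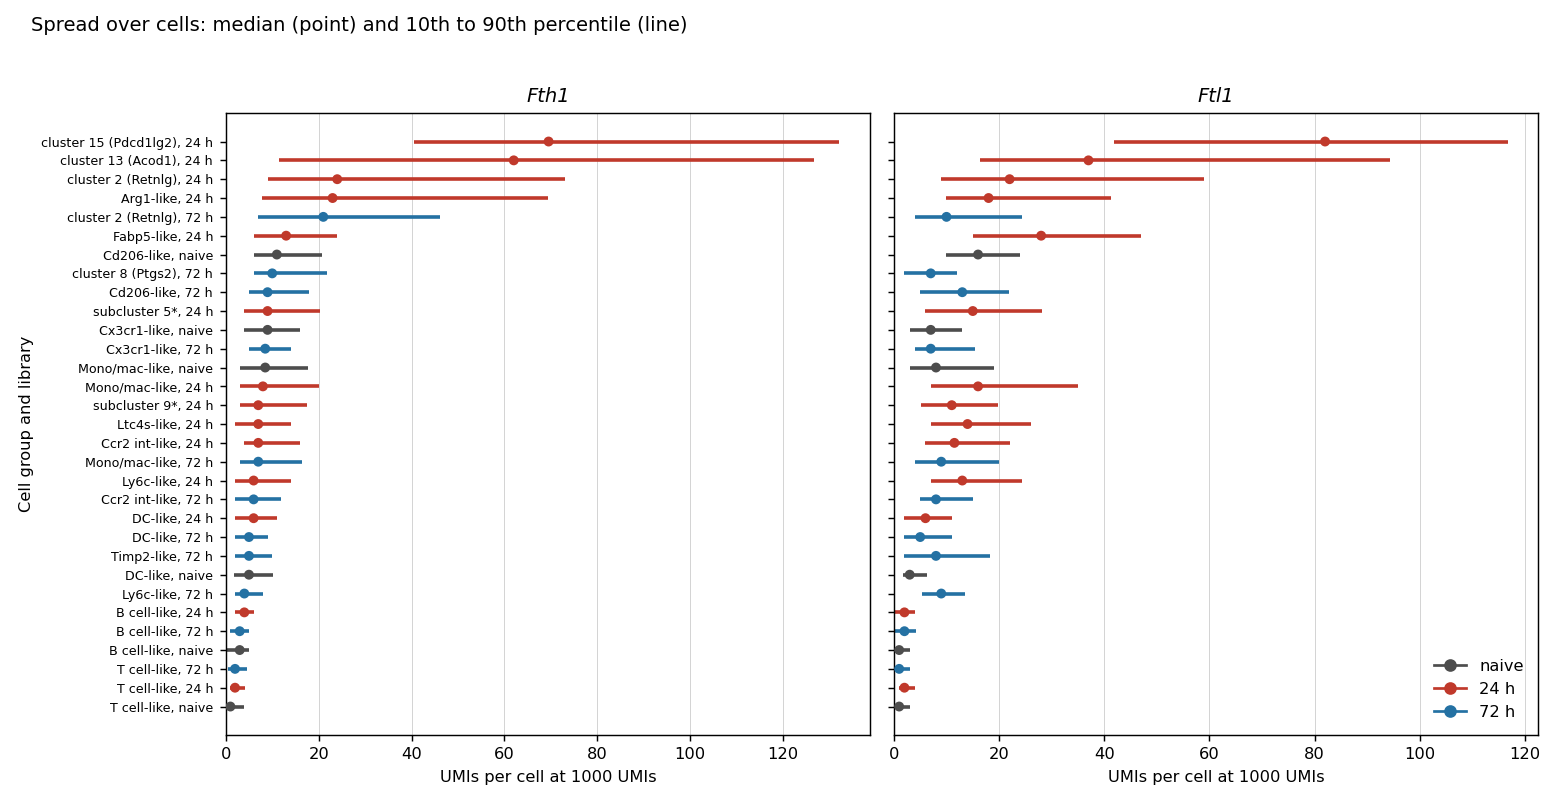
Fth1 (left) and Ftl1 (right) UMIs per cell with each cell drawn down to 1000 UMIs, for each group and library with at least 20 deep enough cells. Points are medians and lines run from the 10th to the 90th percentile over cells, coloured by library. Clusters 15 and 13 lie at the top in both genes, and T cell-like and B cell-like cells at or near the bottom.

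Within monocyte/Mφ-like cells, subsets named after their markers differed more in ferritin than the 3 libraries did. Fth1 was 27570.4 CPM (26809 to 28348) in the Arg1-like subset at 24 h (35 cells), the highest level, and had more UMIs there than any other gene. It was 14188 CPM (14053 to 14325) in the Fabp5-like subset at 24 h and 13625 CPM (12865 to 14417) in the naïve Cd206-like subset. The lowest levels were 4951 CPM (4596 to 5326) in the Ly6c-like subset at 72 h and 5694 CPM (5506 to 5887) in the Timp2-like subset at 72 h. Ftl1 had a different order: it was highest in the Fabp5-like subset at 24 h, where at 29249 CPM (29055 to 29444) it had more UMIs than any other gene, and lowest in the Cx3cr1-like subset, at 7737 CPM (7377 to 8109) in the naïve library and 7924 CPM (7400.0 to 8476) at 72 h. The Cx3cr1-like values of Ftl1 in the naïve and 72 h libraries had overlapping intervals, also with the Ly6c-like subset at 72 h (8094 CPM), and so had the 24 h Fth1 levels of the Ly6c-like (7579 CPM) and Ltc4s-like (7489.9 CPM) subsets.

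At 24 h the Fabp5-like cells (412) were set against the Ly6c-like cells (298), which carry monocyte genes. Fth1 was 1.87 (1.84 to 1.91) times higher in the former, Ftl1 1.92 (1.90 to 1.95) times, Hmox1 1.80 (1.57 to 2.06) times and Mt1 2.39 (2.19 to 2.60) times, and Trf was 1.89 (1.63 to 2.18) times lower. Mt1 alone passed 2-fold among the 5, where 10.3% of 1562 genes did and the median ratio was 0.989. The cells of both groups come from 1 library, so the intervals say nothing of other mice. Hmox1 in the Ly6c-like subset was 153 CPM with all cells and 126 CPM without 1 cell that held 54 of its 300 UMIs. In the Fabp5-like subset it was 275 CPM, and 236 CPM without 1 cell that held 119 of 817 UMIs. At 72 h the Cd206-like cells (246) exceeded the Timp2-like cells (126) by 1.97 (1.90 to 2.05) times in Fth1, 1.38 (1.35 to 1.42) times in Ftl1, 2.68 (2.37 to 3.03) times in Trf and 2.01 (1.73 to 2.35) times in Mt1. Trf and Mt1 passed 2-fold there, as did 19.1% of 1431 genes.

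The balance of the ferritin chains also differed between cell groups. Ftl1 made up 51.4% (50.4 to 52.4) of the Ftl1 and Fth1 UMIs of naïve monocyte/Mφ-like cells, 65.4% (65.2 to 65.5) at 24 h and 56.9% (56.5 to 57.3) at 72 h. This share does not depend on how many other messages a cell holds. By subset it ran from 42.2% (40.7 to 43.7) in the naïve Cx3cr1-like subset and 43.6% (42.5 to 44.6) in the Arg1-like subset to 67.3% (67.1 to 67.6) in the Fabp5-like and 68.5% (68.0 to 69.0) in the Ltc4s-like subset at 24 h. The Cd206-like subset had 56.8% (54.9 to 58.7) in the naïve library and 56.6% (56.0 to 57.1) at 72 h, with overlapping intervals. Cluster 8 had 27.2% (24.7 to 29.7) at 24 h, the lowest share of any group, and 35.2% (33.8 to 36.6) at 72 h. Cluster 2 had 45.5% (44.7 to 46.2) at 24 h and 33.1% (31.8 to 34.5) at 72 h, where its interval overlapped that of cluster 8. Ftl1 UMIs outnumbered those of Fth1 in 6 of the 8 named subsets, all but the Cx3cr1-like and Arg1-like ones. Fth1 UMIs outnumbered those of Ftl1 in clusters 2, 8 and 13 and in T cell-like and B cell-like cells of all libraries. How completely each message was captured was not measured, so the shares compare groups and not the amounts of the 2 chains. The near-identical gene Ftl1-ps1 on chromosome 13 received from 0.787% to 2.74% of the UMIs of the pair in any group, and UMIs of these genes could be split between them.

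**Figure D4:**
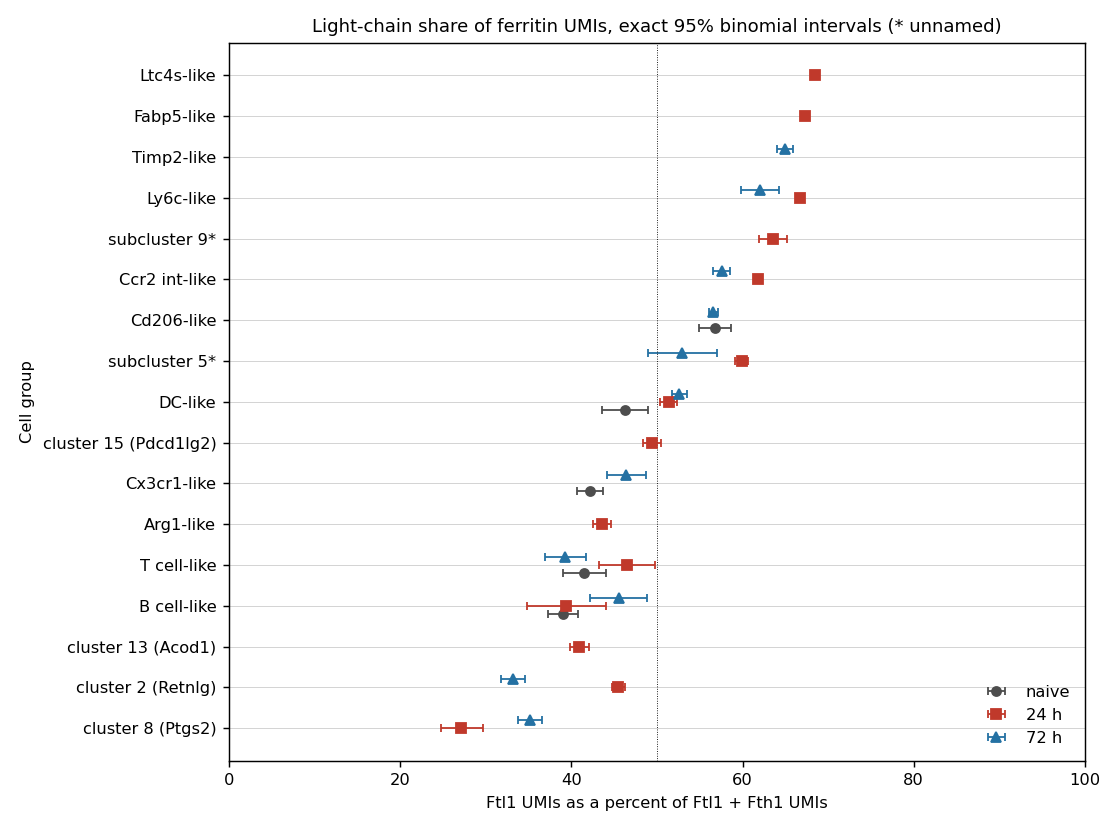
Ftl1 UMIs as a percent of Ftl1 and Fth1 UMIs together, in each cell group (rows) and library (circle naïve, square 24 h, triangle 72 h), with exact 95% binomial intervals. The line marks 50%. Monocyte/Mφ-like subsets other than the Cx3cr1-like and Arg1-like ones lie above it, except that the interval of subcluster 5 at 72 h reaches across it, and clusters 2, 8 and 13 lie below it.

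Over cells drawn down to 1000 UMIs, the 2 ferritin counts rose together in monocyte/Mφ-like cells, with Spearman's rho of 0.495 over 1528 cells at 24 h, 0.389 over 556 cells at 72 h and 0.127 over 134 naïve cells. Within the Fabp5-like subset at 24 h it was 0.426, and within the naïve Cx3cr1-like subset 0.00149. These are descriptions: the cells share a library and the counts are parts of the same 1000 UMIs.

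Hmox1 was low in every group and uneven over cells. Among the numbered clusters, it was 635 CPM (461 to 852) in cluster 13 at 24 h and 169 CPM (124 to 225) in cluster 2. Cluster 15 lay between them, on few UMIs. It held 0.876% of the library's Hmox1 UMIs in 55942 UMIs of all genes, and cluster 2 held 2.57% in 277404. In cluster 13, 18 of 47 cells held its 44 UMIs, and without the cell with most of them (16 UMIs) the level was 419 CPM. Per cell this came to 0.936 Hmox1 UMIs, against 1.98 in the Fabp5-like subset. Among the monocyte/Mφ-like subsets of the 24 h library, the Fabp5-like subset was highest at 275 CPM (256 to 294), followed by the Ltc4s-like (199 CPM (176 to 223)), Arg1-like (178 CPM (121 to 251)) and Ly6c-like (153 CPM (136 to 171)) subsets, of which the Arg1-like interval overlapped both its neighbours. The Ccr2 int-like subset was lowest at 92.8 CPM (79.0 to 108). The level of 579 CPM (444 to 742) in the Cx3cr1-like subset at 72 h rested on 1 of its 20 cells, which held 51 of the 62 UMIs. Without that cell it was 106 CPM. In the Cd206-like subset Hmox1 had 3 UMIs in the naïve library (34.0 CPM (7.01 to 99.4)) and 167 at 72 h (129 CPM (110.1 to 150.0)), of which 1 cell held 42, and the level at 72 h was 96.9 CPM without it. The ratio of 72 h to naïve was 3.79 (1.27 to 18.6), where 7.03% of 1408 genes passed 2-fold. In that comparison Hmox1 reached 100 CPM only at 72 h. DC-like cells stayed low, with 1, 18 and 31 UMIs in the 3 libraries.

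Trf separated the named subsets of the 24 h library from those of the other libraries, while naïve and 72 h levels overlapped. In the naïve library it was 993 CPM (867 to 1133) in the Cx3cr1-like subset and 1258 CPM (1035 to 1515) in the Cd206-like subset, of which 1 cell held 30 of the 111 UMIs. The Cd206-like level was 992 CPM without that cell. All 5 named subsets of the 24 h library were lower, at 371 CPM (343 to 401) in the Ccr2 int-like, 221 CPM (201 to 243) in the Ly6c-like, 117 CPM (105 to 130.4) in the Fabp5-like, 83.2 CPM (46.6 to 137) in the Arg1-like and 63.3 CPM (50.9 to 77.7) in the Ltc4s-like subset. The Arg1-like interval overlapped those of the Fabp5-like and Ltc4s-like subsets. All 5 named subsets with at least 20 cells at 72 h were higher than these, from 512 CPM (457 to 572) in the Timp2-like subset and 516 CPM (406 to 647) in the Ly6c-like subset, through 840.0 CPM (675 to 1033) in the Cx3cr1-like and 1021 CPM (942 to 1106) in the Ccr2 int-like subset, to 1371 CPM (1308 to 1436) in the Cd206-like subset.

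Both named subsets with at least 20 cells at 24 h and 72 h moved with the class. Trf was 2.75 (2.46 to 3.08) times higher at 72 h in the Ccr2 int-like subset (244 and 78 cells), where 4.68% of 1390 genes passed 2-fold, and 2.33 (1.80 to 2.98) times higher in the Ly6c-like subset (298 and 25 cells), where 13.3% of 1609 genes did. Both named subsets with enough cells in the naïve library and at 72 h stayed within 2-fold between them. The ratio was 0.846 (0.655 to 1.08) in the Cx3cr1-like and 1.09 (0.899 to 1.33) in the Cd206-like subset. The Cd206-like ratio depends on the naïve cell with 30 of 111 UMIs: without the cell with most Trf UMIs in each library, the levels were 992 CPM (naïve) and 1354 CPM (72 h). Background levels moved as well: T cell-like cells had 18.9 CPM (8.66 to 36.0), 15.9 CPM (3.28 to 46.5) and 69.0 CPM (46.2 to 99.1) in the 3 libraries. Cluster 2 had 64.9 CPM at 24 h and 179 CPM at 72 h. B cell-like cells had 33 UMIs in the naïve library, 0 UMIs at 24 h, where 3 UMIs would be 38.7 CPM and the exact interval reaches 47.6 CPM (3 other settings gave 39.4 to 39.9 CPM), and 215 CPM at 72 h, which became 44.4 CPM without 1 cell that held 30 of 37 UMIs. The Trf levels of the 5 named subsets at 72 h were above those of both lymphoid classes in the same library, and the part of free RNA in them was not tested.

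**Figure D5:**
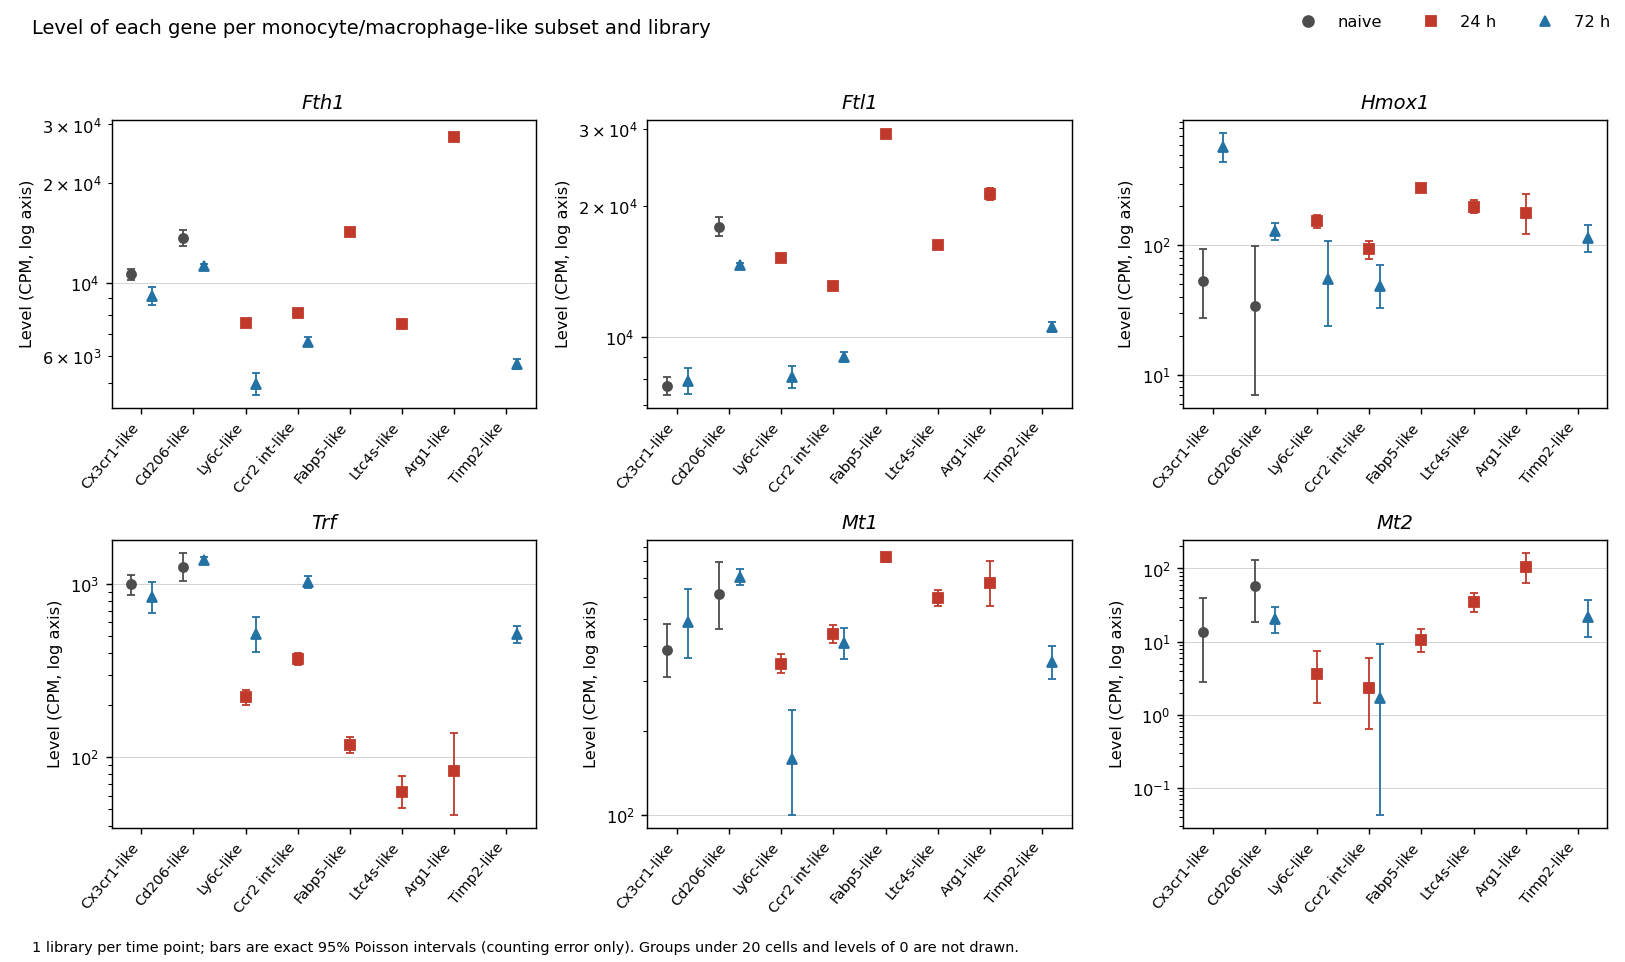
Level of each gene (CPM, log axis) in 8 monocyte/Mφ-like subsets, by library (circle naïve, square 24 h, triangle 72 h), with exact 95% Poisson intervals. All red squares of Trf lie below its circles and triangles, and Ftl1 is highest in the Fabp5-like subset.

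Mt1 was the better counted metallothionein in every class. In the named monocyte/Mφ-like subsets it was highest in the Fabp5-like subset at 24 h, at 827 CPM (794 to 860.1), where 96.1% (93.8 to 97.8) of cells held a UMI. The unnamed subcluster 5 at 24 h, with 416 Mt1 UMIs of 561947, lay between this level and that of the Cd206-like subset at 72 h. Mt1 came next among the named subsets in 2 groups with overlapping intervals. It was 705 CPM (659.7 to 752) in the Cd206-like subset at 72 h and 671 CPM (557 to 802) in the Arg1-like subset at 24 h. The lowest level was 158 CPM (100.3 to 237) in the Ly6c-like subset at 72 h. DC-like cells went the other way from monocyte/Mφ-like cells. They held 413 CPM (311 to 537) when naïve, 233 CPM (202 to 268) at 24 h and 502 CPM (463 to 544) at 72 h, so that the 24 h library was lowest, as it was for the monocyte/Mφ markers of this group given above. The 72 h level was 2.15 (1.83 to 2.54) times that at 24 h, where 5.89% of 1426 genes passed 2-fold. The naïve DC-like group was 30 cells and 55 Mt1 UMIs, and the part of its T cell and NK/ILC markers in the Mt1 level was not tested. In T cell-like cells Mt1 had 15, 13 and 10 UMIs, and in the numbered clusters at most 226 CPM, in cluster 8 at 72 h, where 1 cell held 13 of 47 UMIs.

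Mt2 was near the limit of what was counted. In monocyte/Mφ-like cells it was 30.4 CPM (17.0 to 50.2), 13.2 CPM (10.9 to 15.8) and 16.9 CPM (12.6 to 22.1), and with cells drawn down to 1000 UMIs it was found in 1.49%, 1.44% and 1.62% of them. It was most dense in the Arg1-like subset at 24 h, at 105 CPM (63.5 to 165), where 1 cell held 12 of 19 UMIs and the level without it was 40.4 CPM. The Ltc4s-like subset at 24 h had 34.4 CPM (25.5 to 45.5) from 49 UMIs, against 3.56 CPM (1.43 to 7.34) in the Ly6c-like and 2.34 CPM (0.636 to 5.98) in the Ccr2 int-like subset. In naïve B cell-like cells 1 cell held 16 of 17 Mt2 UMIs, and for Mt1 the highest count in a cell was 14 of 28 UMIs, which leaves 1.37 and 19.2 CPM without the cell with most UMIs of each gene. Mt2 made up 5.48% (4.08 to 7.18) of the UMIs of both genes in the Ltc4s-like subset and 1.25% (0.848 to 1.76) in the Fabp5-like subset of the same library.

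Over whole libraries the 24 h levels of Fth1, Ftl1, Hmox1 and Mt1 lay further above the naïve ones than within the class, and that of Trf less far below, while the shares of cell types also changed: monocyte/Mφ-like cells were 21.3%, 69.9% and 46.2% of the naïve, 24 h and 72 h cells. From naïve to 24 h, the library level went up 4.54 (4.44 to 4.65) times for Ftl1, 2.39 (2.34 to 2.44) times for Fth1, 3.24 (2.89 to 3.65) times for Mt1 and 9.24 (6.62 to 13.3) times for Hmox1, and Trf went down 1.67 (1.51 to 1.84) times. In this comparison 31.1% of 1612 genes passed 2-fold, and Hmox1 reached 100 CPM only at 24 h. With the levels of T cell-like, monocyte/Mφ-like and B cell-like cells weighted by their naïve cell numbers at each time, and set against the same 3 classes at each library's own cell numbers, the changes were 1.81 times against 5.31 for Ftl1, 1.22 against 2.53 for Fth1, 1.52 against 4.49 for Mt1 and 3.97 against 11.0 for Hmox1, and the ratio of Trf was 0.202 against 0.727. At 72 h, the library level of Trf was 2.43 (2.21 to 2.67) times the naïve one, and over the 3 classes it was 1.51 times at the naïve cell numbers and 3.38 times at the library's own.

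Of 49 further genes listed for iron transport, iron storage control, heme making and breakdown, and zinc and copper handling, 45 were in the tables. In monocyte/Mφ-like cells 11 of them reached the level for comparison between 24 h and naïve. Pcbp1, which delivers iron to ferritin, was 2.03 (1.62 to 2.59) times higher at 24 h, Blvra, which reduces the biliverdin that heme oxygenase makes, 2.14 (1.47 to 3.23) times, and Hp, the hemoglobin-binding haptoglobin, 4.43 (3.19 to 6.34) times. These 3 passed 2-fold upwards and 0 of the 11 passed it downwards, where 22.0% of all 1525 genes passed it in either direction. Blvra and Hp reached 100 CPM only at 24 h, so they entered through the library where they were high. Blvrb, the other biliverdin reductase, had a ratio of 0.535 (0.443 to 0.652), and Hmox2, the constitutive heme oxygenase, 1.43 (1.09 to 1.90). The copper chaperone Atox1 had 1.51 (1.36 to 1.69), the phagosomal metal transporter Slc11a1 1.10 (0.867 to 1.41) and Nfe2l2, which encodes the regulator NRF2, 0.851 (0.659 to 1.12). The median ratio of the 11 genes was 1.43, beside 1.25 for all genes compared.

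Between 24 h and 72 h, 0 of 11 listed genes passed 2-fold, against 10.0% of all genes compared, and between naïve and 72 h Hp did, among 9, against 6.08%. Hp did not reach 100 CPM in the naïve library. In the Fabp5-like against the Ly6c-like subset at 24 h, 13 were compared and 3 passed 2-fold, against 10.3%. The heme transporter gene Slc48a1 was 2.17 (1.72 to 2.77) times higher, and Hp and the siderophore-binding lipocalin Lcn2 were 4.54 (4.07 to 5.08) and 8.12 (6.29 to 10.6) times lower. Slc48a1 entered only through the Fabp5-like subset and Lcn2 only through the Ly6c-like subset, where each was high. The median of the 13 was 1.04, beside 1.87 for the 5 members.

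The genes whose levels were most like those of each member were ranked by Pearson's r of log2(CPM + 10) over the 30 groups of at least 20 cells, among 3574 genes that reached 100 CPM in a group. The groups share libraries, so r is a description. For Fth1 the first were Nfe2l2 (0.930) and Ier3 (0.927), and for Ftl1 Sdcbp (0.962) and Ftl1-ps1 (0.959). For Hmox1 the first was Ftl1-ps1 (0.806), followed by Lamp2 and then by Ftl1 (0.796). As UMIs could be split between Ftl1 and Ftl1-ps1, their places need not be separate results. For Trf the first were Apoe (0.893) and Csf1r (0.874), and for Mt1 Dab2 (0.915) and Aif1 (0.896). Apoe and Csf1r were among the markers used to name the monocyte/Mφ-like class. For Mt2 no gene came above 0.609, the value of Cbr2. Among the members, Fth1 and Ftl1 were most alike (0.892), followed by Ftl1 and Hmox1, while Mt1 and Mt2 had 0.317.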

How the data were processed

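The authors aligned and counted the 10x Genomics 3′ reads with Cell Ranger 3.0.2 against mm10 (GRCm38), and deposited UMI counts per gene and cell for each of 3 libraries, after removing cells under 200 genes or over 10% mitochondrial UMIs. Near-identical genes can share reads in such counts.

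From these counts, the 4102 cells were clustered with Seurat 5.3.0 (R 4.3.3) on 2000 variable genes, leaving out the members and the listed pathway genes, with 30 principal components (20 inside monocyte/Mφ-like cells), 20 neighbours and a resolution of 0.8. This gave 17 clusters and 10 subclusters, and names needed 3 markers found in 10% of cells and raised 2-fold. A cluster stayed unnamed if its leading genes held more markers of another class. So did a cluster of shallow cells with no marker of its best class among the leading genes. Clusters without a name were then scored again against named clusters of other classes. The monocyte/Mφ-like clusters led by Arg1, Fabp5, Gm9733 and Saa3 were named in that way. The names were rebuilt here and may differ from those of the study. UMIs were summed per group and library with numpy 2.4.6 and pandas 2.3.3, intervals (95%) came from scipy 1.17.1, and groups of at least 20 cells were used. A count of 0 allows up to 3 UMIs. A gene was compared where it had 100 CPM in a group and 10 UMIs in all, and was called past 2-fold. Doublets were kept, with the cells of highest Scrublet score (scanpy 1.11.5, 0.8% per 1000 cells) removed as an alternative. The code was tested on simulated data. Figures were drawn with matplotlib 3.10.9.

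The genes named are the 6 members, the listed pathway genes past 2-fold with others of known role, and the genes most like each member. The members and lists were chosen with earlier results of these data known. With 1 library per time point, no p-value was computed. Alternatives covered resolution, principal components, cell filters, doublets, thinning to 1000 UMIs, the mean over cells and the CPM total.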

Additional observations from a re-analysis of the deposited data

Results flagged for a closer look

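Mt1 moved in opposite directions in 2 classes. From naïve to 24 h its level ratio was 1.42 (1.23 to 1.64) in monocyte/Mφ-like cells and 0.565 (0.417 to 0.776) in DC-like cells. From 24 h to 72 h it was 0.892 (0.843 to 0.942) in monocyte/Mφ-like cells and 2.15 (1.83 to 2.54) in DC-like cells. Over the 3 libraries, the 14 monocyte/Mφ markers in DC-like cells summed to 12050.2, 5067 and 9546 CPM, also lowest at 24 h, and the 30 naïve DC-like cells held 1876 CPM of T cell and 2694 CPM of NK/ILC markers. The part of these in the Mt1 levels was not tested. Fth1 from naïve to 72 h had ratios of 1.26 (1.15 to 1.38) in T cell-like and 1.12 (1.01 to 1.24) in B cell-like cells, against 0.928 (0.900 to 0.957) in monocyte/Mφ-like and 0.892 (0.826 to 0.964) in DC-like cells. With 1 library per time point, these differences between classes were not tested, and the intervals cover counting error only.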

How the results depend on the processing

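No paired analysis was possible because each time point was 1 library, and for the same reason no library could be left out. The counts of members past 2-fold between time points in monocyte/Mφ-like cells (2, 1 and 1) held under all 9 other settings tried, with the same genes, and under 2 more added after seeing the data (leaving out the cell with most UMIs, and the 2 unnamed subclusters). With cells thinned to 1000 UMIs, the 24 h to naïve ratio was 1.12 for Fth1, 1.79 for Mt1 and 0.159 for Trf, and that of Mt2, which rests on few UMIs, turned from 0.434 to 1.40. As the mean over cells, it was 1.99 for Ftl1 and 0.183 for Trf. Over all 11 alternatives the ratio of Hmox1 lay between 3.39 and 5.16. In the Fabp5-like against the Ly6c-like subset, the count of members past 2-fold rose from 1 to 2 with 15 principal components (10 inside the class) and with the members among the variable genes (Hmox1 and Mt1), and with thinned cells (Ftl1 and Mt1), and the cause was not tested. Of 648 levels recomputed under those 9 settings, 510 moved by less than their counting interval. Depth limits Mt2 everywhere and Hmox1 in lymphoid and DC-like cells.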
